A study of Rattus norvegicus with 4 samples.

Results

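Adrenergic and cyclic AMP signalling in the left ventricle was followed through 9 genes: Adrb1, Adra1a, Adra1b, Gnas, Adcy5, Adcy6, Pde3a, Pde4d and Prkaca. They were taken by gene symbol from the deposited expression table, where each of the 9 was the sole name of 1 of 22861 loci. The rats were male Sprague Dawley animals on 0.4% Dyets chow that had most of their kidney mass removed (5/6 nephrectomy) at 10 weeks of age. One group then received anti-miR-21, an oligonucleotide built with locked nucleic acid, sugar-modified bases that bind their complement tightly, and directed against miR-21-5p, and the other group received anti-scr, a scrambled oligonucleotide of the same chemistry. Both were infused into the jugular vein at 1 mg/kg on 3 days in week 1 and on 3 days in week 4 after surgery, and the ventricle was taken in week 7. All animals thus had the same kidney operation, and rats without it were not analysed here. Each group held 2 libraries, each a pool of 2 to 3 rats, and the table gives 1 value per group. The comparison asks how these genes differ in the heart of a rat with kidney loss when miR-21-5p is inhibited.

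Adrenaline and noradrenaline act on the heart through beta and alpha1 receptors. Beta receptors use the stimulatory G protein to switch on adenylyl cyclases, which make cyclic AMP, and cyclic AMP frees the catalytic subunit of protein kinase A to phosphorylate calcium channels, phospholamban and sarcomere proteins. Phosphodiesterases break cyclic AMP down, while alpha1 receptors work through another G protein and phospholipase C. In the ventricle this pathway raises the force of the beat and the speed of its relaxation, and it is known to be blunted in the failing heart.

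The agent's target is printed first, because the oligonucleotide was directed against it. It is the mature miR-21-5p of the rat, from RefSeq on GRCr8 (chr10:71902653-71902674, minus strand, 22 bases), with its seed, bases 2 to 8 from the 5′ end, in capitals.
rno-miR-21-5p: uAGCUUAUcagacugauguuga
The start regions of Adrb1 and Prkaca follow, as the receptor and the kinase at the ends of the cyclic AMP route. Both hold the core letters of the cyclic AMP response element, the DNA element through which the pathway acts on its own target genes. Each window runs from 250 bases before the gene's start to 50 bases from it on, read on the gene's strand, from RefSeq on GRCr8. Capitals mark TGACG or, on the other strand, CGTCA.
Adrb1 (chr1:265776853-265777152, plus strand): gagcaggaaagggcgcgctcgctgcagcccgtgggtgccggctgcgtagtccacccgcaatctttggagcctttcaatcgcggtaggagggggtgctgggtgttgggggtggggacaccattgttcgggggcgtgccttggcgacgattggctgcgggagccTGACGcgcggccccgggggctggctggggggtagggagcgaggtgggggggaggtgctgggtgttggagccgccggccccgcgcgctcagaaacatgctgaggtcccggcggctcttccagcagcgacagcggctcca
Prkaca (chr19:41083140-41083439, minus strand): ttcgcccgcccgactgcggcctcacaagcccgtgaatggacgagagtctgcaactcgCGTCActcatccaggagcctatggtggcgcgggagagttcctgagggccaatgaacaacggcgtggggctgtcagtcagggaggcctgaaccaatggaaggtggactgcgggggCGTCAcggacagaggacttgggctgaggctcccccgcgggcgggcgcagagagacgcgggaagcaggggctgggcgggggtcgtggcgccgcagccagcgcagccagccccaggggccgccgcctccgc

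In the Adrb1 window the motif begins 88 bases upstream of the start, and in the Prkaca window it begins 193 and 79 bases upstream. Windows were found for 7 of the 9 genes, 13 windows in all, since Gnas has 3 annotated starts and Pde4d has 5. The core motif stood in 5 of the 13 windows, from Adrb1, Prkaca, 1 start of Gnas and 2 starts of Pde4d, while 21.2% of all 33469 windows of 300 bases hold it. The full element TGACGTCA, which contains the core motif, stood in 0 of the 13 windows and in 1.83% of all windows. Windows of Adra1b, Adcy5 and Pde3a held neither. These counts describe letters in a window and say nothing of a factor bound there. G and C made up 39.7% to 82.0% of the bases in the windows of these genes.

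None of the 9 genes was called in either direction. A gene was called where the authors' deposited q lay under 0.05, which took 0.815% of the 12876 tested loci. In the authors' deposited table the 9 q values ran from 0.600 to 0.995, and 0 of the 9 had an unadjusted p under 0.05, a threshold passed by 9.3% of all tested loci. In value, 5 of the 9 genes were higher with anti-miR-21 and 4 were lower. Over the 9960 named loci with a mean of at least 1 FPKM (fragments per kilobase of transcript, scaled to the size of the library), 51.9% were higher in value. The median log2 fold of the 9 genes, anti-miR-21 over anti-scr, was 0.03, beside 0.01 over those 9960 loci, and it was -0.04 after centring on the median fold of loci with like gene density and -0.01 with the authors' deposited folds. Such centring sets the median of the named loci in each set of like density to 0 by construction, so they are then split evenly by sign. Folds of the 9 genes lay between -0.38 and 0.29 on the log2 scale. Dividing each fold from the FPKM ratio by its deposited test statistic gave 0.265 to 0.502 log2 units. This is the standard error if the statistic is the fold over its error, which neither the header nor the labels state. For Gnas that reading could hold only for the FPKM ratio, since its deposited fold and statistic differ in sign. Since the table gives 1 value per group, the spread between pools enters only through the deposited p and q.

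The folds that the deposited test did call at these levels can be read from loci of like abundance. Among tested loci within 2-fold of each gene's mean FPKM, the smallest called log2 fold was 0.67 to 0.80 in size, depending on the gene. None of the 9 genes reached that size, and no locus at these levels was called at folds as small as theirs. Calls were few, at 20 of 4411 such loci for Adrb1 and 4 of 202 for Gnas. Larger folds could go uncalled too. A locus with a mean of 19.0 FPKM had a log2 fold of -0.69 and a q of 0.405 in the authors' deposited table. The smallest called fold is therefore not a size above which a change would have been called.

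**Figure D1:**
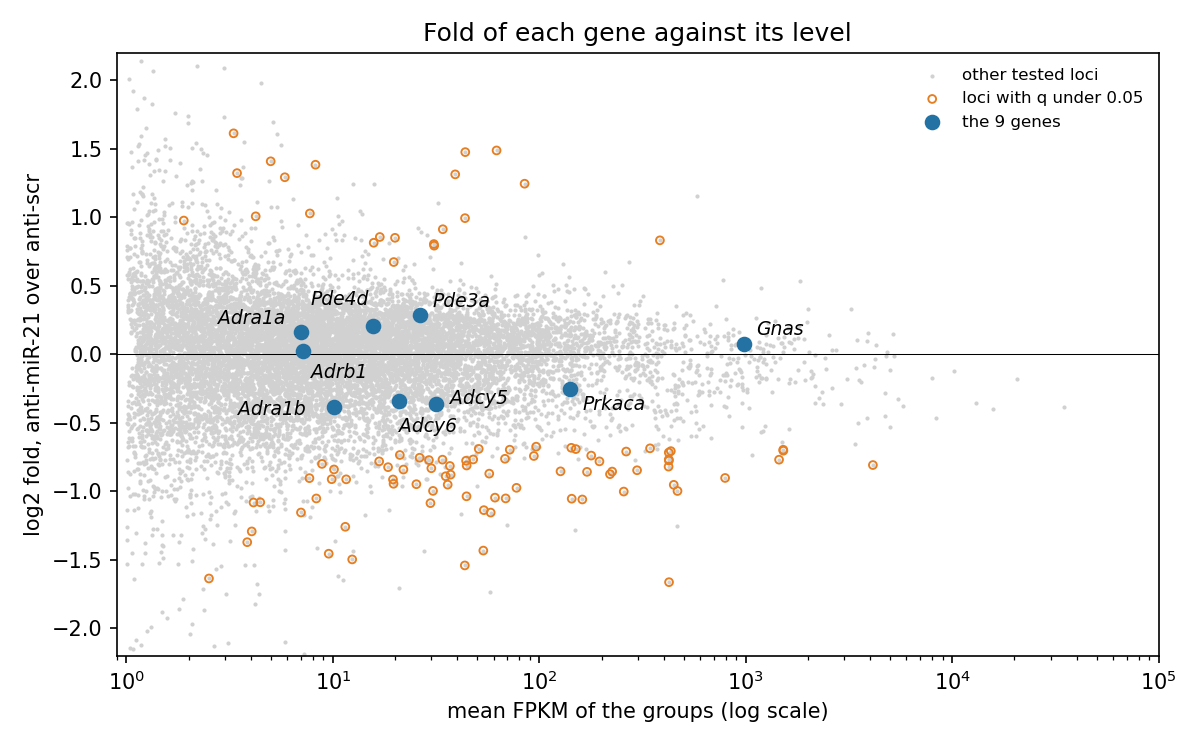
Log2 fold (anti-miR-21 over anti-scr) against the mean FPKM of the groups on a log axis, for tested loci with a mean of at least 1 FPKM; grey points are tested loci, orange rings mark q under 0.05, and blue points are the 9 genes. The 9 blue points lie between -0.38 and 0.29, inside the grey cloud, whereas rings at like levels start at 0.67 in size; 22 loci lie outside the axes.

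The cardiac beta receptor gene was nearly level between the groups. Adrb1, which encodes the main beta receptor of the ventricle, had 7.24 FPKM with anti-miR-21 and 7.10 FPKM with anti-scr (log2 fold 0.03; rn5 chr1:284917871-284993234). Its q was 0.995 in the authors' deposited table. The deposited positions are spans that several loci can share, and this one is also given for 12 loci without a name, the most abundant of which had 7.57 FPKM with anti-miR-21 and 7.31 FPKM with anti-scr. Its fold is the smallest of the 9 in size by the FPKM ratio, and it takes the other sign, at -0.04, after centring on gene density. The ratio of fold to statistic, 0.502, log2 units, was the largest of the 9.

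Among the alpha1 receptors, which act through phospholipase C and calcium, the main subtypes of the heart leaned in opposite directions. Adra1b stood at 8.77 FPKM with anti-miR-21 and at 11.5 FPKM with anti-scr (log2 fold -0.38, p = 0.0873 and q = 0.620 in the authors' deposited table; rn5 chr10:29233971-29291344). That is the largest fold in size among the 9, and it did not pass. Adra1a stood at 7.44 FPKM with anti-miR-21 and at 6.64 FPKM with anti-scr (log2 fold 0.16; rn5 chr15:48189922-48297430), with a q of 0.872 in the authors' deposited table. Adra1b was thus 1.18 times as abundant as Adra1a with anti-miR-21 and 1.72 times as abundant with anti-scr, a difference that was not tested. The remaining alpha1 gene, Adra1d, had 3.21 FPKM with anti-miR-21 and 3.58 FPKM with anti-scr. Of the 9 listed adrenergic receptor genes, 5 were tested and 0 were called, and Adrb3 was listed at 0 in both groups.

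Gnas, which encodes the alpha subunit of the stimulatory G protein, was by far the most abundant of the 9. It had 1007 FPKM with anti-miR-21 and 953.8 FPKM with anti-scr (rn5 chr3:178426254-178490285), above 98.8% of the 9960 named loci with anti-miR-21 and 98.6% with anti-scr. The FPKM ratio gives a log2 fold of 0.08, whereas the authors' deposited log2 fold is -0.01, so the direction of this gene depends on which is read. In the authors' deposited table its test statistic was positive, at 0.291, against the sign of the deposited fold, and Gnas was the 1 locus among the 12876 tested where these signs differed. Another 458 tested loci had a statistic within 0.02 of this size in either direction, and their p ran from 0.514 to 0.878 with a median of 0.681, while the p of Gnas was 0.957 in the authors' deposited table. Beyond a tolerance of 0.002, the deposited fold and the FPKM ratio differed in 9 of 17308 loci, and Gnas was the only 1 of the 9 genes among them. The Gnas locus is complex, with several starts and transcripts, and the table gives no value per transcript. Gnas took 83.7% of the summed FPKM of 9 G protein alpha subunit genes with anti-miR-21 and 82.6% with anti-scr, and 0 of the 7 tested genes of that list were called.

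Both cardiac adenylyl cyclase genes were lower in value with anti-miR-21, and neither passed. Adcy5 and Adcy6 encode the calcium-inhibited cyclases that make most of the cyclic AMP of the ventricular myocyte. Adcy5 had 27.5 FPKM with anti-miR-21 and 35.3 FPKM with anti-scr (log2 fold -0.36, p = 0.0747 and q = 0.600 in the authors' deposited table; rn5 chr11:71785346-71946179, a span given for 2 unnamed loci too). Adcy6 had 18.5 FPKM with anti-miR-21 and 23.4 FPKM with anti-scr (log2 fold -0.34, p = 0.0829 and q = 0.614 in the authors' deposited table). Their ratio was nearly the same in both groups, at 1.49 with anti-miR-21 and 1.51 with anti-scr. Together they held 71.3% of the summed FPKM of 10 adenylyl cyclase genes with anti-miR-21 and 77.7% with anti-scr, a difference that was not tested. Among the 7 tested cyclase genes 0 were called, and 3 were higher and 4 lower in value with a median log2 fold of -0.15. Centred on gene density, 2 were higher and 5 lower, with a median of -0.07. Adcy7, a cyclase known from blood cells, ran the other way in value, at 6.32 FPKM with anti-miR-21 and 3.96 FPKM with anti-scr (log2 fold 0.68, p = 0.0742 in the authors' deposited table). The deposited span of Adcy7 is also that of Brd7.

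The deposited position of Adcy6 is on chromosome X of rn5 (chrX:114774380-114794509). In RefSeq on GRCr8 the gene lies on an autosome, and all of its 6 nearest named loci in the deposited table, Cacnb3, Ccnt1, Ddx23, Rnd1, Kansl2 and RGD1305928, are among its neighbours there too. The block as a whole thus has a different place in the 2 assemblies. Each of the other 8 genes was on the same chromosome in both.

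Both phosphodiesterase genes of the 9, whose enzymes break down cyclic AMP, were higher in value with anti-miR-21, again without a call. Pde3a, the target of inotropic drugs such as milrinone, had 29.1 FPKM with anti-miR-21 and 23.8 FPKM with anti-scr (log2 fold 0.29, p = 0.129 and q = 0.687 in the authors' deposited table; rn5 chr4:239659014-239930067). Pde4d, which is tethered near beta receptors and the ryanodine receptor, had 16.8 FPKM with anti-miR-21 and 14.5 FPKM with anti-scr (log2 fold 0.21, p = 0.328 and q = 0.829 in the authors' deposited table; rn5 chr2:59292846-60526176). After centring on gene density these values were 0.14 and 0.04. The span given for Pde4d, 1233 kb, is also that of Elovl7 and Mir582, so it is not the length of the gene. Pde4d has many starts and isoforms, and the table gives a single value. Of 16 listed phosphodiesterase genes 10 were tested, 0 were called, and 7 of the 10 were higher in value with a median log2 fold of 0.17. Centred on gene density, 6 were higher and 4 lower, with a median of 0.04. The related gene Pde3b was the 1 of them with an unadjusted p under 0.05, at 2.21 FPKM with anti-miR-21 and 1.53 FPKM with anti-scr (log2 fold 0.53, p = 0.0480 and q = 0.532 in the authors' deposited table).

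Prkaca, which encodes the main catalytic subunit of protein kinase A, had 128.1 FPKM with anti-miR-21 and 152.6 FPKM with anti-scr (log2 fold -0.25, p = 0.175 and q = 0.727 in the authors' deposited table; rn5 chr19:36073103-36096885). Its paralogue Prkacb was higher in value, at 28.8 FPKM with anti-miR-21 and 24.3 FPKM with anti-scr (log2 fold 0.25). Prkaca thus made up 81.6% of the summed FPKM of these 2 genes with anti-miR-21 and 86.3% with anti-scr, which was not tested. All of the 6 other tested genes of the kinase list, regulatory subunits and inhibitor peptides among them, were higher in value, and 0 of the 7 were called. The median of the list was 0.18, and 0.05 centred on gene density. Prkar1a, a regulatory subunit that holds the kinase inactive, was the most abundant of the list, at 300.1 FPKM with anti-miR-21 and 280.2 FPKM with anti-scr (log2 fold 0.10).

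**Figure D2:**
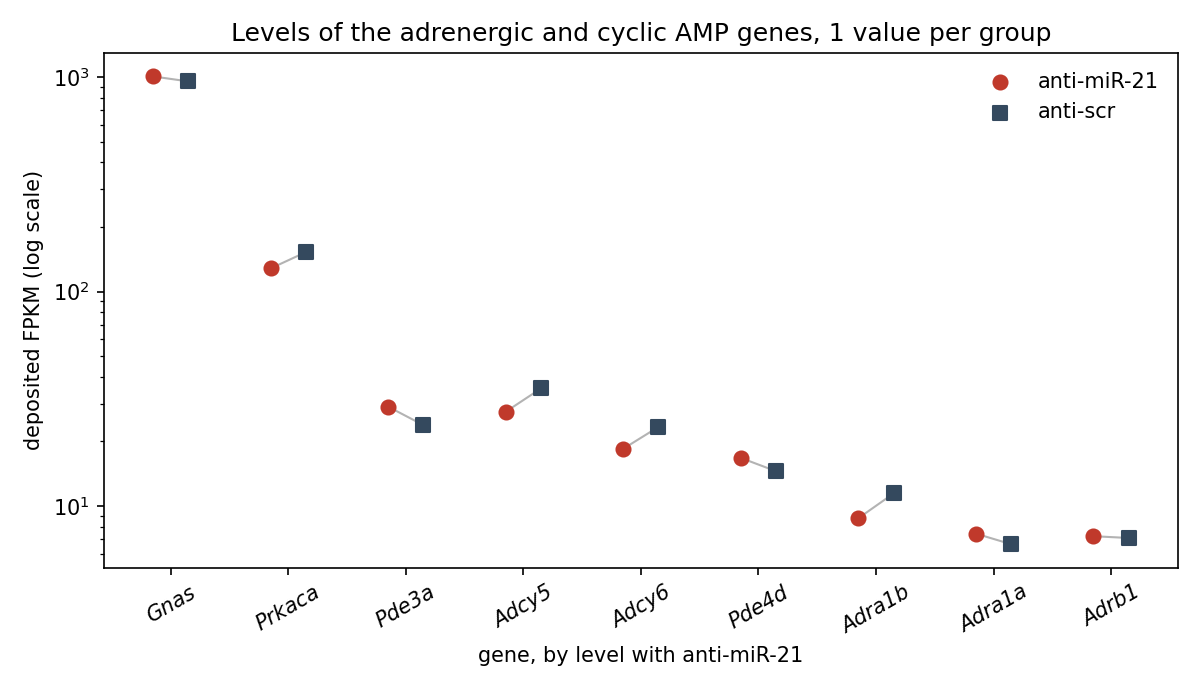
Deposited FPKM on a log axis for each of the 9 genes, anti-miR-21 as circles on the left of each pair and anti-scr as squares on the right, ordered by level with anti-miR-21; there is 1 value per group and therefore no error bar. Gnas is highest, at 1007 FPKM with anti-miR-21 and 953.8 FPKM with anti-scr, Prkaca is next, at 128.1 FPKM with anti-miR-21 and 152.6 FPKM with anti-scr, and the receptor genes are lowest.

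The order of levels was much the same in the groups. In both, Gnas was first, Prkaca was second, and Adcy6, Pde4d and Adra1b took ranks 5, 6 and 7. Pde3a had rank 3 with anti-miR-21 and rank 4 with anti-scr, and Adcy5 had rank 4 with anti-miR-21 and rank 3 with anti-scr. Adcy5 accordingly had 0.946 times the FPKM of Pde3a with anti-miR-21 and 1.48 times with anti-scr. Adra1a and Adrb1 also changed places, with Adra1a above Adrb1 with anti-miR-21 and below it with anti-scr. With 1 value per group, whether neighbours in this order differ could not be tested. The Adrb1 transcript was far below those of Gnas and Prkaca, which stand further along its route. Gnas had 139.1 times the FPKM of Adrb1 with anti-miR-21 and 134.4 times with anti-scr. Prkaca had 17.7 times the FPKM of Adrb1 with anti-miR-21 and 21.5 times with anti-scr.

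The wider pathway was read from 13 gene lists with 139 genes, 132 of which were the sole name of a locus and 103 of which were tested. The authors' deposited table called 1 of the 103 higher, where 0.186% of all tested loci were called higher, and 0 lower, where 0.629% were called lower. The lists were chosen with earlier results of these data known, so these shares are a description only. The called gene was Maoa, which encodes the mitochondrial monoamine oxidase that degrades noradrenaline and serotonin. It rose to 491.3 FPKM with anti-miR-21, against 275.9 FPKM with anti-scr (log2 fold 0.83; rn5 chrX:7371697-7439640), with a q of 0.0131 in the authors' deposited table. This was the largest fold of the 103 upwards. At an unadjusted p under 0.05, 3 genes were higher and 6 lower, beside 3.18% and 6.11% of all tested loci. Over the 103 genes, 57 were higher and 46 lower in value, and their median log2 fold was 0.05. Centred on gene density both turned, to 42 higher and 61 lower with a median of -0.04, where named loci so centred have a median of 0 by construction.

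Of 11 genes for myocyte proteins that protein kinase A phosphorylates or that act with it, 10 were lower in value, 0 were called, and 5 had an unadjusted p under 0.05, all lower. Their median log2 fold was -0.27, and centred on gene density it stayed at -0.27. For comparison, 48.1% of the 9960 named loci were lower in value. Of all tested loci, 0.815% were called, and 6.11% were lower with an unadjusted p under 0.05. This list too was chosen with earlier results of these data known, so its counts are a description only. Fxyd1, which encodes the sodium pump regulator phospholemman, was just outside the call, at 283.3 FPKM with anti-miR-21 and 458.0 FPKM with anti-scr (log2 fold -0.69), with a q of 0.0522 in the authors' deposited table. Ppp1r1a, which encodes a phosphatase inhibitor that protein kinase A activates, had 2.79 FPKM with anti-miR-21 and 5.34 FPKM with anti-scr (log2 fold -0.94), with a q of 0.256 in the authors' deposited table. Its deposited span is also that of Pde1b, which was not tested. The other 3 were the calcium channel regulator gene Rrad (log2 fold -0.57), the myosin-binding protein gene Mybpc3 (-0.54) and the troponin gene Tnni3 (-0.46), with q from 0.196 to 0.501 in the authors' deposited table. Markers of cardiomyocytes were lower in value alongside. Their summed level was 69004 FPKM with anti-miR-21 and 86743 FPKM with anti-scr, and 6 of 7 were lower. Tnni3 and Ryr2 stand in both lists. Without them the markers summed to 61642 FPKM with anti-miR-21 and 76744 FPKM with anti-scr, with 5 of 5 lower, and their part in the values of the substrate list was not tested. In bulk tissue, fewer cells of a type and less RNA per cell cannot be told apart.

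Apart from Maoa, the catecholamine list had 1 gene higher and 4 lower in value (with Maoa, 3 and 3 after centring on gene density), and the remaining lists held no call. Among effectors of cyclic AMP other than protein kinase A, all 5 tested genes were lower in value, with a median of -0.42 and 0 at an unadjusted p under 0.05. Centred on gene density the 5 were lower too, with a median of -0.25. Popdc2, a cyclic AMP-binding membrane protein of muscle and the most abundant of them, had 125.1 FPKM with anti-miR-21 and 148.0 FPKM with anti-scr. The pacemaker channel genes Hcn2 (log2 fold -0.43) and Hcn4 (-0.42), whose channels open more readily with cyclic AMP, had p of 0.0519 and 0.0502 in the authors' deposited table. In receptor desensitisation, Rgs2, which speeds the shut-off of G protein signals, had 18.0 FPKM with anti-miR-21 and 10.7 FPKM with anti-scr (log2 fold 0.75, p = 0.0295 and q = 0.452 in the authors' deposited table). The deposited span of Rgs2 is also that of Uchl5, and the span of Hcn2 is also that of Polrmt. Of the 9 tested desensitisation genes, 4 were higher and 5 lower in value. In the alpha1 route, Plcb3, a phospholipase C gene, had the lowest fold of the 103 at 0.716 FPKM with anti-miR-21 and 1.56 FPKM with anti-scr (log2 fold -1.12). Its q was 0.131 in the authors' deposited table, and the other 7 of 8 genes were higher in value. Centred on gene density, 5 of the 8 were higher and 3 lower, and the median was 0.03 in place of 0.13. Anchoring proteins for protein kinase A had 10 of 12 genes higher in value with a median of 0.09. Akap12 (log2 fold 0.26) was the most abundant by the mean of the groups. With anti-scr Akap1 was the most abundant, at 47.2 FPKM, and it was lower in value with anti-miR-21 (log2 fold -0.29). After centring, 3 of those 12 were higher and the median was -0.04. Factors of the cyclic AMP transcription response were split 5 to 5, with Atf1 (0.23) the most abundant, and 2 were higher and 8 lower after centring. Other receptors coupled to these G proteins had 4 of 6 genes higher in value, with Calcrl (0.36) the most abundant, and 3 of 6 after centring.

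**Figure D3:**
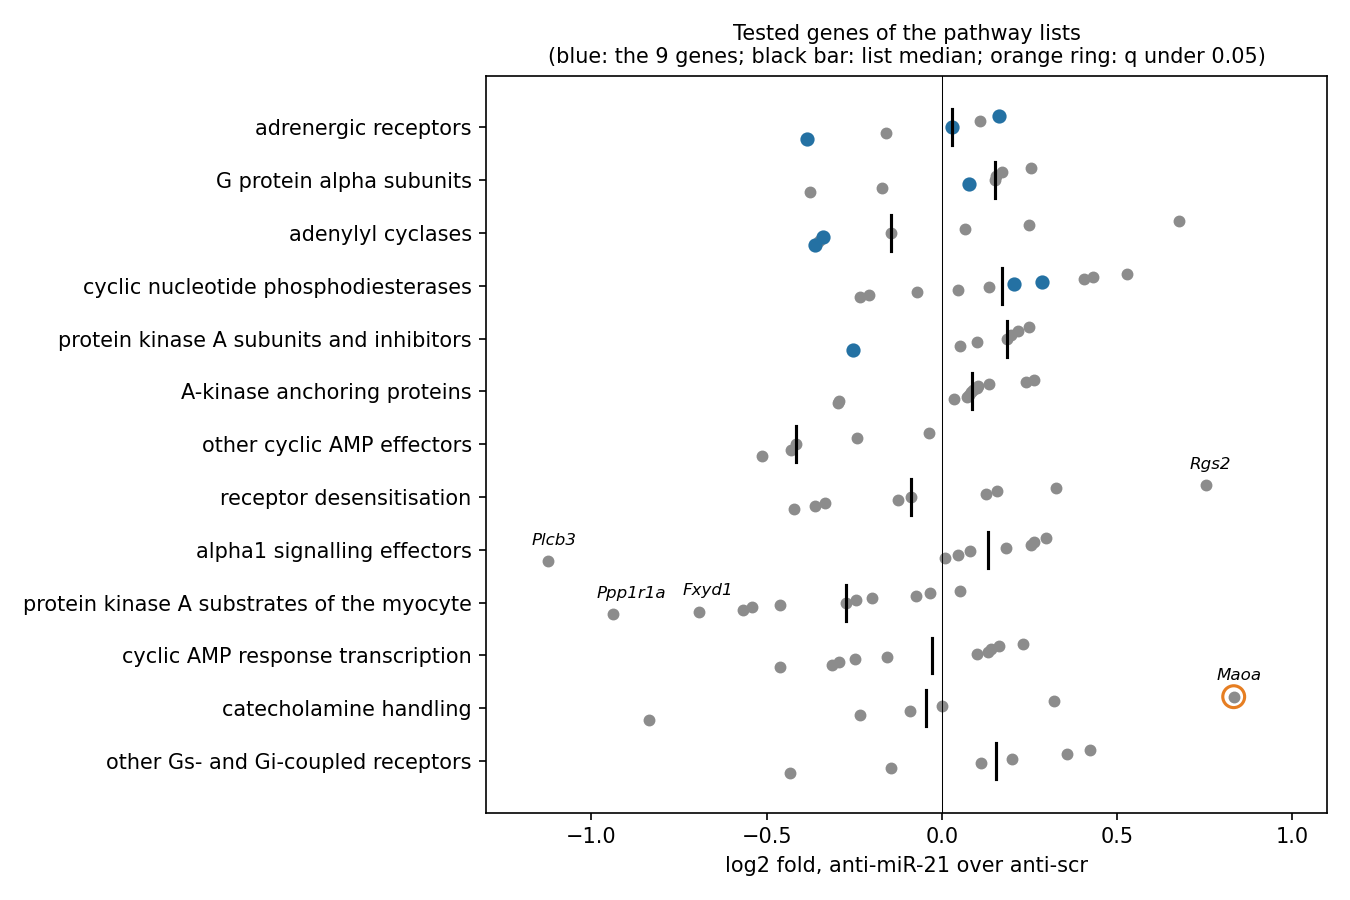
Log2 fold (anti-miR-21 over anti-scr) of the tested genes in each of the 13 pathway lists; each point is a gene, blue points are among the 9 genes, black bars are list medians, and the orange ring marks q under 0.05. Maoa at 0.83 is the only ringed gene, and the kinase substrates and other cyclic AMP effectors lie mostly left of 0.

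Folds in this comparison varied with how gene-rich a gene's surroundings were, and the values of these genes can be set beside that. Density was counted here as the named loci centred no more than 500 kb away, from the middle of the deposited span, which for Adrb1, Adcy5 and Pde4d is shared with other loci. With the named loci in 10 bins by density, the median log2 fold was 0.17 in the sparsest bin and -0.28 in the densest. Pde4d and Pde3a had the fewest neighbours of the 9, with 2 and 3, and Prkaca and Adcy6 had the most, with 25 and 18. The 2 neighbours of Pde4d are Elovl7 and Mir582, which share its span. That span, at 1233 kb, is wider than the window, so the count cannot reach past it. Set against the median of its own bin, Prkaca differed by -0.06, so its value lay close to those of loci in like surroundings. Pde4d differed by 0.04, but its bin rests on the shared span. From the medians of their own bins Adcy5, with 5 neighbours, differed by -0.48, Adra1b, with 8, by -0.45 and Adcy6 by -0.23. In the other direction Pde3a differed by 0.14 and Adra1a by 0.099. Whether gene density has a part in any of these values was not tested.

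**Figure D4:**
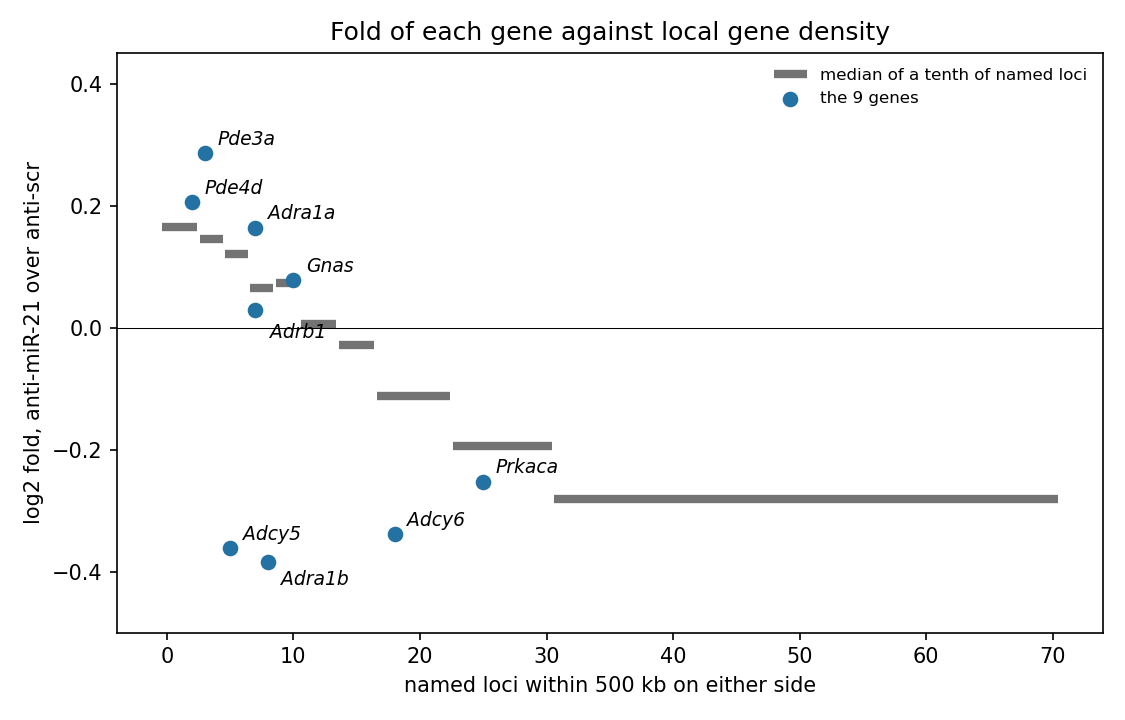
Log2 fold (anti-miR-21 over anti-scr) of the 9 genes, as blue points, against the count of named loci up to 500 kb away; grey bars are the median fold in each of 10 bins of density. The bars fall from 0.17 to -0.28. Adrb1, Pde4d, Gnas and Prkaca lie near them, Adcy5, Adra1b and Adcy6 lie below them, and Pde3a and Adra1a lie above them.

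The libraries held 54952098 and 47826514 reads with anti-miR-21 and 48549754 and 53501488 with anti-scr, of which 94.0% to 94.4% mapped. As heart muscle the tissue fitted its label, with Tnnt2, the cardiac troponin T gene, at 11397 FPKM with anti-miR-21 and 14612 FPKM with anti-scr. The chamber of origin was not tested. Fibroblast markers summed to 2634 FPKM with anti-miR-21 and 2012 FPKM with anti-scr (7 of 7 tested higher in value), and macrophage markers to 399.1 FPKM with anti-miR-21 and 305.1 FPKM with anti-scr (6 of 8). Endothelial markers summed to 357.4 FPKM with anti-miR-21 and 349.1 FPKM with anti-scr (2 of 6 tested higher in value). Those of smooth muscle and pericytes summed to 774.6 FPKM with anti-miR-21 and 738.3 FPKM with anti-scr (3 of 7 higher in value). Most of that sum was Rgs5, at 550.7 FPKM with anti-miR-21 and 473.7 FPKM with anti-scr. Nerve and Schwann cell markers were low, at 27.5 FPKM with anti-miR-21 and 20.5 FPKM with anti-scr, and the noradrenaline synthesis gene Th was listed at 0 with anti-miR-21 and at 0.0328 FPKM with anti-scr. Adipocyte markers summed to 2775 FPKM with anti-miR-21 and 2714 FPKM with anti-scr, nearly all of it Fabp4, which endothelium also expresses. The fibroblast gene Col1a2 was listed at 0 with anti-miR-21 and at 0.0123 FPKM with anti-scr at the locus that names it alone. The part of these cell types in the values of the 9 genes was not tested.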

How the data were processed

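RNA of left ventricle was sequenced as pairs on an Illumina HiSeq from stranded total RNA libraries, per the labels. The authors' deposited FPKM values came as 1 value per locus and group. The submitters' processing notes name rn5, Cuffdiff, Cufflinks 2.0.10, TopHat2 2.0.10 and cutadapt, with neither annotation nor options. The same deposited table holds a test statistic (a score without a fixed range), a p-value and a q-value. A second deposited table gives the count of reads and the percent mapped per library. FPKM shifts when a few abundant transcripts change, and near-identical genes can share reads.

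Cells displaced in 97 rows that list more than 1 gene were realigned. Log2 folds were computed from the FPKM ratio. Of the loci, 5676 had no symbol and 257 had several, and 22.2% share their deposited span with another locus. Loci with p and q of 1 and a statistic of 0 were counted as not tested. Python 3.11.15, pandas 2.3.3, numpy 2.4.6 and matplotlib 3.10.9 were used, and the adjustment and centring were tested on simulated data. The 9 genes, the 13 pathway lists and 7 marker lists were chosen with earlier results of these data known. Missing list symbols were matched through RefSeq synonyms (GRCr8). Named genes are the 9 genes and, per list, genes with q under 0.05, else with p under 0.05, else the most abundant, plus the largest fold in each direction. Adrb3, Adra1d, Adcy7, Prkacb, Hcn2, Hcn4 and Akap1 were named after their values were seen. So were the marker genes, the neighbours of Adcy6 and genes sharing a span or list. The values of 1 listed gene are not reported here.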

Additional observations from a re-analysis of the deposited data

How the results depend on the processing

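No paired analysis was possible because the expression table gives 1 pooled value per group, and for the same reason no library could be left out. The count of 0 called among the 9 genes was unchanged with q under 0.1, unadjusted p under 0.05, and the adjustment recomputed over all tested loci or over those with a mean of at least 1 or 5 FPKM. The pathway count of 1 (Maoa) was 2 with q under 0.1 and 2 with the adjustment over loci of at least 5 FPKM, where Fxyd1 joined, and 9 with unadjusted p under 0.05. Genes higher in value numbered 5 in the other settings, and 4 with density centring (Adrb1 changed sign) or the authors' deposited folds (Gnas changed sign, an alternative chosen after seeing the data). Density centring moved 5 folds by more than 0.1, to -0.48 for Adcy5, -0.23 for Adcy6, 0.14 for Pde3a, 0.04 for Pde4d and -0.06 for Prkaca. Pseudocounts of 0.1 and 1 and centring on all named loci or on 10 bins of mean FPKM moved none by that much. Summing loci could change nothing, since each gene has 1 locus. Among loci at the levels of the 9 genes, a log2 fold under 0.67 in size was not called at this depth and number of pools. Some larger folds at these levels were not called either.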
